A study of Mus musculus with 21 samples.

Results

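Claudins are membrane proteins that form the strands of the tight junction, and 10 claudin genes of the kidney were described here, chosen by name as the claudins known from segments of the nephron, the glomerulus and the endothelium. All 10 were found among the 20634 genes present in both deposited count tables, and all 10 passed the filter on low counts in each comparison. The tables named 11 further claudins. Each claudin gives the junction of its cells its own permeability, so that the proximal tubule leaks sodium and water between its cells, the thick ascending limb lets calcium and magnesium through, and the collecting duct is tight. The set of claudins that a segment expresses is therefore part of how the nephron divides its work.

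Kidney RNA was measured by single-end sequencing of 50 bases in female mice that lacked apoE (apoE KO on the C57BL/6J background), a hyperlipidemic strain, and the absence of apoE was shared by all groups, controls included. The mice were fed from 4 weeks of age for 14 weeks and were 18 weeks old at collection. The Control group (Con, 5 mice) received chow, the Adenine group (Ade, 6 mice) received chow with adenine at 0.2% of the diet, a purine that damages the tubules, and the Adenine + IMC group (Ade + IMC, 6 mice) received the same adenine with iodomethylcholine (IMC, an inhibitor of the formation of trimethylamine by gut bacteria) at 0.06%. The study asked how this inhibitor affects adenine-induced kidney disease, and 4 mice fed IMC without adenine were not analysed here.

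Libraries held 7716126 to 11680809 counts for Con, 5444833 to 7673215 for Ade and 5728589 to 8305968 for Ade + IMC mice. Levels are given as CPM, the count scaled to the size of the library, with sizes adjusted over the 17 mice by the trimmed mean of M-values (TMM). The claudin counts behind them were 63 to 7095 for Con, 88 to 2849 for Ade and 89 to 3164 for Ade + IMC mice. Apoe held 47 to 214 counts in each mouse, with no apoE-intact mouse to set beside them. None of the nephron, endothelial or other marker genes listed was at 0 in all mice, and the proximal tubule markers summed to 13128 to 18301 CPM in the Con mice, so the defining markers of kidney were present. In whole kidney RNA, fewer cells of a type and less RNA per cell cannot be told apart.

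Compared to the Con group, 6 of the 10 claudins were higher in the Ade group, 3 were lower and 1 did not pass the test. Cldn4, Cldn3, Cldn7, Cldn5, Cldn1 and Cldn16 rose by 1.39-fold to 3.36-fold, and Cldn2, Cldn8 and Cldn10 were 1.91-fold to 2.38-fold lower. These changes were read from a fit over 14612 genes by edgeR's quasi-likelihood test, with a threshold of 0.1 on the p-value adjusted by the Benjamini-Hochberg method. In that fit 35.1% of all genes were called higher and 32.2% lower, so that the 3 lower claudins of 10 are close to the share over all genes. The groups did not overlap in CPM for 5 of the higher and all 3 of the lower claudins, where 22.8% of all genes were higher and 20.0% lower without overlap. The median size of the change, without its sign, was 1.01 on the log2 scale for the claudins and 0.42 for all genes. The claudins were chosen with earlier results of these data known, so these shares and sizes cannot show that claudins change more than other genes. With scaling to the total count alone the median of all genes moved from 0.02 to 0.32 on the log2 scale and the higher share of the called genes from 52.2% to 76.2%, while each of the 9 called claudins kept its call and direction. Under that scaling Cldn19 was called as well (0.66, edgeR adjusted p = 0.0237), and Cldn16 was at 0.77 in place of 0.48.

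**Figure D1:**
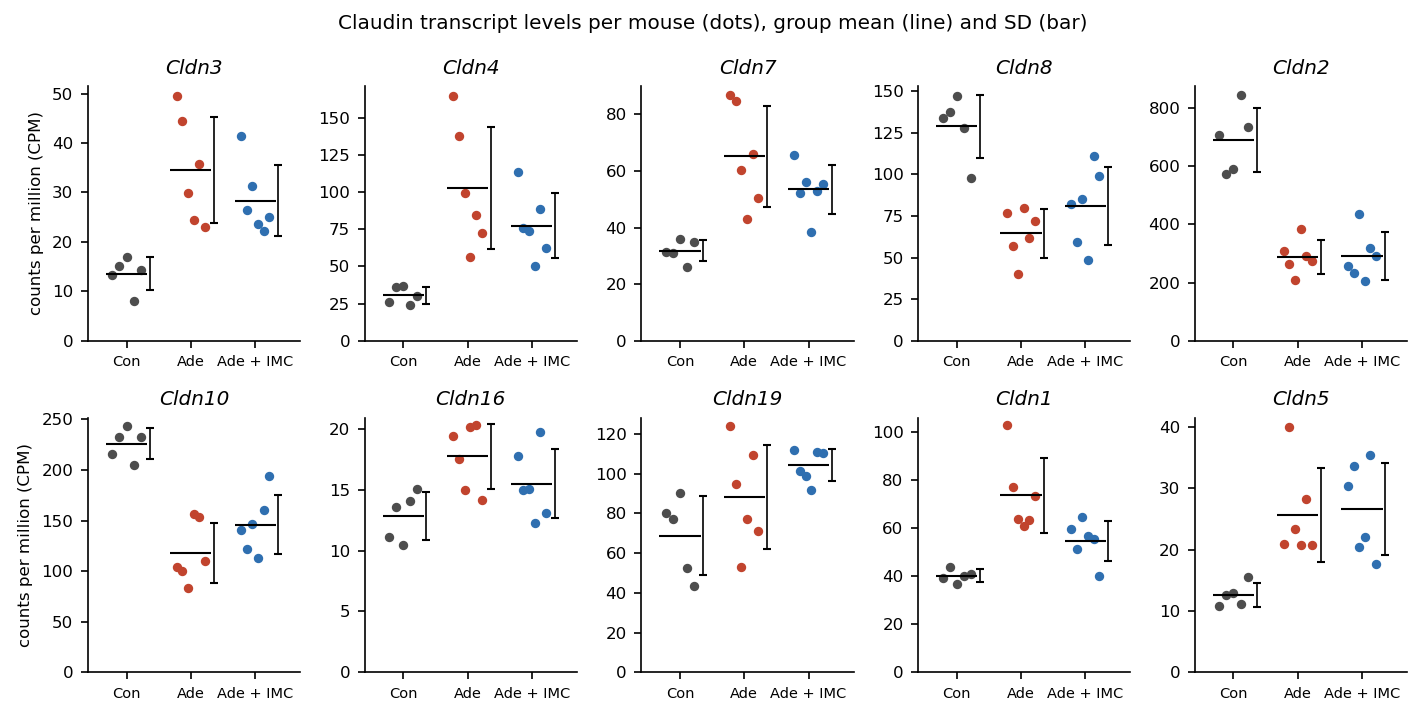
CPM of the 10 claudins (vertical axes, linear and starting at 0) in each of 5 Con, 6 Ade and 6 Ade + IMC mice, with the group mean as a line and the SD as a bar. The Ade mice lie above all Con mice for Cldn3, Cldn4, Cldn7, Cldn1 and Cldn5 and below them for Cldn2, Cldn8 and Cldn10.

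The claudins of the collecting duct and distal nephron did not move together. Cldn3, Cldn4 and Cldn7 rose, and Cldn8 fell. Cldn4 is a tightening claudin that pairs with Cldn8, and together they are known to form the chloride path of the collecting duct. Cldn4 (ENSMUSG00000047501, chromosome 5 of GRCm38, 134945119 to 134946934, minus strand) had a CPM of 26.1, 35.9, 36.8, 24.4 and 30.3 in the Con mice 201, 202, 301, 302 and 403. It was 56.4 to 164 in the Ade mice (median 92.0) and 50 to 113 in the Ade + IMC mice (median 74.9). Every adenine-fed mouse, with or without IMC, thus lay above every Con mouse, and the spread among the Ade mice was wide, with mouse 207 at the top and mouse 407 at the bottom. Between the Ade and Con groups, the log2 fold change was 1.75 (standard error 0.25, edgeR adjusted p = 4.92e-05), the largest of the 10.

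Cldn3, a sealing claudin, lies next to Cldn4 (ENSMUSG00000070473, chromosome 5, 134986214 to 134987472, plus strand), with 39279 bases and 0 protein-coding genes between them. The genes point away from each other. Cldn3 had a CPM of 13.2, 15.1, 16.9, 8.13 and 14.4 in the Con mice in the same order, 23.1 to 49.5 in the Ade mice (median 32.8) and 22.1 to 41.5 in the Ade + IMC mice (median 25.8). As for Cldn4, no adenine-fed mouse reached down to the Con range. In the Ade group the log2 fold change of Cldn3 was 1.36 (standard error 0.22, edgeR adjusted p = 0.000162). Per base of exon, the ratio of Cldn3 to Cldn4 had a median of 0.663 in the Con group (0.481 to 0.732) and 0.461 in the Ade group (0.434 to 0.626), ranges that overlap. The exons of Cldn3 share 40 bases with Wbscr25 on the opposite strand, and since the use of strand in counting is not stated, reads in those bases cannot be assigned.

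The 250 bases before the start of Cldn4 (chr5:134946935-134947184, minus strand) and of Cldn3 (chr5:134985964-134986213, plus strand) are given 5′ to 3′ from RefSeq on GRCm38.p6, because these neighbours changed in the same direction. Capitals mark a GC box (GGGCGG) or a Snail-type E-box (CAGGTG), read on either strand.
Cldn4: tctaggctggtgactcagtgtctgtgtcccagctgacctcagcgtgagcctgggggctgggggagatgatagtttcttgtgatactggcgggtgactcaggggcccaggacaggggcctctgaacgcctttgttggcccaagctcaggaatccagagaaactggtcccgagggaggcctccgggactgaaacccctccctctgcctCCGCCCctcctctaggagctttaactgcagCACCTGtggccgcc
Cldn3: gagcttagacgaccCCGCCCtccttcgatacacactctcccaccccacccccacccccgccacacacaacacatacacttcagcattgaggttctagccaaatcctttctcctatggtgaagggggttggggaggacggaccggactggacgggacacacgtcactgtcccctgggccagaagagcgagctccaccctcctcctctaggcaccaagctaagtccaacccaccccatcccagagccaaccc
Both windows held a GC box, and that of Cldn4 also held an E-box near the start. RefSeq gave 12 such windows for 9 of the claudins, some of them overlapping, and Cldn8 was not among them. A GC box was found in 8 of the 12 and in 32.7% of 32851 windows of all genes, and an E-box in 2 of the 12 and 17.2% of all. The core site of grainyhead factors (AACCGGTT) was found in 0 of the 12 and 0.116% of all windows. These are matches of letters only.

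Cldn7 is found along the basolateral membrane as well as at the junction of the collecting duct (ENSMUSG00000018569, chromosome 11, 69964779 to 69967885, plus strand). It had a CPM of 31.3, 31.1, 35.9, 26.2 and 34.7 in the Con mice and of 43.1 to 86.9 in the Ade mice (median 63.1), without overlap. The Ade + IMC mice had 38.5 to 65.6 (median 54.1), also above all Con mice. The change of Cldn7 in the Ade group was 1.04 on the log2 scale (standard error 0.17, edgeR adjusted p = 0.000166).

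Cldn8 is a barrier to cations in the distal nephron and recruits Cldn4 to the junction (ENSMUSG00000050520, chromosome 16, 88560828 to 88563183, minus strand). It had a CPM of 134, 138, 147, 128 and 97.6 in the Con mice and of 40.2 to 79.7 in the Ade mice (median 67.1), all below the Con range. The Ade + IMC mice had 48.9 to 111 (median 83.5), and the highest of these passed the lowest Con mouse. Adenine feeding alone gave Cldn8 a log2 fold change of -0.99 (standard error 0.16, edgeR adjusted p = 0.000116).

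In whole kidney RNA, the ratios of Cldn4, Cldn3 and Cldn7 to Cldn8 were higher in the adenine-fed groups. The RNA was not separated by segment. Per base of exon, the ratio of Cldn4 to Cldn8 had a range of 0.247 to 0.403 in the Con mice (median 0.325), 0.917 to 3.21 in the Ade mice (median 2.27) and 0.820 to 1.79 in the Ade + IMC mice (median 1.23). Cldn8 was the more abundant of the pair in all 5 Con mice, and no adenine-fed mouse reached the Con ratio. For Cldn3 over Cldn8 the Con, Ade and Ade + IMC medians were 0.206, 1.14 and 0.763, and for Cldn7 over Cldn8 they were 0.283, 1.33 and 0.874. Ratios within a mouse do not depend on the scaling between libraries.

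The principal cells that carry these claudins were read from 8 marker genes such as Aqp2 and Scnn1b. Of the 7 that could be tested, 6 were lower in the Ade group and 0 higher, with a median log2 change of -0.66. Cldn8 also fell, by a log2 change of -0.99. Its log2 level relative to the marker mean was 1.16 to 1.91 in the Con mice and 0.24 to 1.69 in the Ade mice. These ranges overlap, with a mean difference of -0.40. The marker mean included Avpr2, too low to be tested (at most 1.87 CPM in any mouse). Cldn3, Cldn4 and Cldn7 moved against the markers. Relative to the same markers, Cldn4 was -0.69 to -0.43 in the Con mice and 0.92 to 2.79 in the Ade mice, a mean difference of 2.27 on the log2 scale. The mean differences of Cldn3 and Cldn7 were 1.93 and 1.60, and neither overlapped between the groups.

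Markers of other cells moved in both directions. Of 7 intercalated cell markers 6 were lower in the Ade group and 0 higher (median log2 change -0.77), and of 6 distal convoluted tubule markers 5 were lower and 0 higher (median -0.78). All 10 injured tubule markers (keratins, Havcr1, Lcn2 and others) were higher in the Ade group. They summed to 1653 to 2022 CPM in Con, 5642 to 18540 CPM in Ade and 3297 to 12071 CPM in Ade + IMC kidneys. Of 5 urothelium markers 3 were higher, and their sum was 2.06 to 28.3 CPM in Con, 11.8 to 108 CPM in Ade and 6.49 to 120 CPM in Ade + IMC kidneys, which overlap. The 9 immune and 8 fibroblast markers were all higher, with median log2 changes of 3.48 and 2.25. Their part in the claudin results was not tested.

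**Figure D2:**
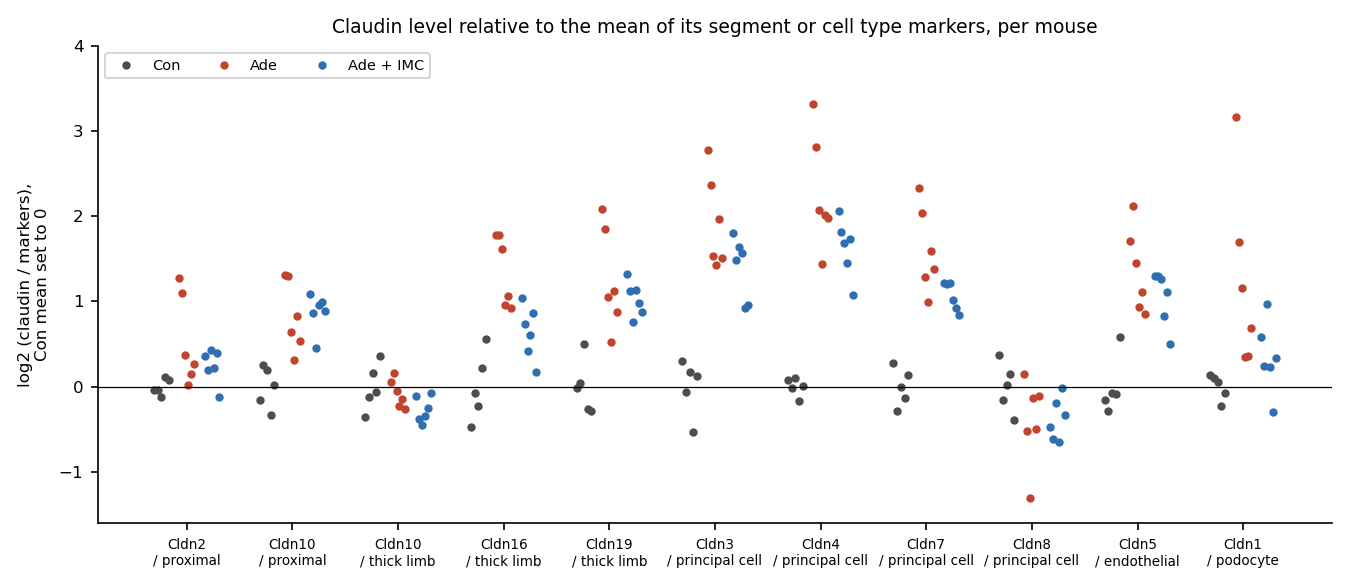
Log2 level of each claudin relative to the mean of the markers of its segment or cell type (vertical axis), with the mean of the 5 Con mice set to 0 and a dot for each mouse. The Ade mice lie above the Con mice for Cldn3, Cldn4 and Cldn7 against principal cell markers, whereas Cldn8 and, against thick ascending limb markers, Cldn10 overlap the Con mice.

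Among the claudins of the proximal tubule, Cldn2 fell the most. Cldn2 forms the pore through which sodium and water pass between proximal tubule cells (ENSMUSG00000047230, chromosome X, 139800828 to 139811386, plus strand). It had a CPM of 706, 573, 591, 843 and 733 in the Con mice, of 210.4 to 385 in the Ade mice (median 283) and of 205 to 437 in the Ade + IMC mice (median 275). No adenine-fed mouse reached the Con range. Its log2 fold change in the Ade group was -1.25 (standard error 0.15, edgeR adjusted p = 1.05e-05), a 2.38-fold lower level.

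Cldn10 is made in different forms from different first exons, of which one favours anions in the proximal tubule and another cations in the thick ascending limb (ENSMUSG00000022132, chromosome 14, 118787908 to 118875489, plus strand). The gene counts pool these forms, so they could not be separated here. Cldn10 had a CPM of 216, 233, 244, 205 and 233 in the Con mice, of 83.9 to 156 in the Ade mice (median 107) and of 113 to 195 in the Ade + IMC mice (median 144). All adenine-fed mice were below all Con mice. Its log2 fold change in the Ade group was -0.93 (standard error 0.15, edgeR adjusted p = 0.00012).

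The 250 bases before the start of Cldn2 (chrX:139800558-139800807, plus strand) and before the first of the RefSeq starts of Cldn10 (chr14:118787621-118787870, plus strand) are given from the same source, as those of the abundant claudins that fell. Capitals mark a TATA box (TATAAA) read on either strand.
Cldn2: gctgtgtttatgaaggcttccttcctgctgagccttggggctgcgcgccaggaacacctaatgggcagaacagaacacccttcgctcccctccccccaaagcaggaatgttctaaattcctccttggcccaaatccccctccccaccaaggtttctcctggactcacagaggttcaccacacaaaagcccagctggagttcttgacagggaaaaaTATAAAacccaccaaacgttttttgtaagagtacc
Cldn10: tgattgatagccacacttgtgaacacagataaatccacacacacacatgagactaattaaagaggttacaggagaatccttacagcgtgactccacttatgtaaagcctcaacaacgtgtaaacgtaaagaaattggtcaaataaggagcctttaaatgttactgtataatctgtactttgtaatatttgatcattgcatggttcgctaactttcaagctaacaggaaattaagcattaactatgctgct
The TATA box of Cldn2 was the only match to that motif among the 12 windows, and 12.4% of all windows hold one. The Cldn10 window held none of the motifs searched and had a GC content of 36%. The window before the other Cldn10 start, inside the gene, had 72.4% GC and a median window of all genes 52.4%, so the starts that are pooled in the counts differ in base composition.

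All 9 proximal tubule markers that could be tested were lower in the Ade group, with a median log2 change of -1.73. The 10 listed markers summed to 2372 to 8031 CPM in Ade and 3649 to 7018 CPM in Ade + IMC kidneys. The log2 change of Cldn2, -1.25, was smaller in size than the median of the tested markers. Levels relative to the marker mean used all 10, including Slc7a13, too low to be tested (at most 1.35 CPM in any mouse). For Cldn2 this log2 level was 0.24 to 0.48 in the Con mice and 0.38 to 1.64 in the Ade mice, which overlap. Cldn10 relative to the proximal tubule markers was -1.56 to -0.97 in the Con mice and -0.92 to 0.07 in the Ade mice, without overlap. Relative to the 8 thick ascending limb markers it was -1.05 to -0.34 and -0.96 to -0.54, which overlap.

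In the thick ascending limb, Cldn16 and Cldn19 form together the path by which magnesium and calcium are taken back, and loss of either wastes these ions. Neither was lower in the Ade group. Cldn16 (ENSMUSG00000038148, chromosome 16, 26463135 to 26482765, plus strand) had a CPM of 11.1, 13.6, 10.4, 14.1 and 15.0 in the Con mice, of 14.1 to 20.3 in the Ade mice (median 18.5) and of 12.3 to 19.7 in the Ade + IMC mice (median 15.0). The Con and Ade ranges overlapped slightly. Its log2 fold change in the Ade group was 0.48 (standard error 0.13, edgeR adjusted p = 0.00749).

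Cldn19 (ENSMUSG00000066058, chromosome 4, 119255414 to 119262438, plus strand) had a CPM of 80.3, 77.1, 90.4, 52.5 and 43.5 in the Con mice and of 52.9 to 124 in the Ade mice (median 86.1). The ranges overlapped widely, and its log2 fold change of 0.37 did not pass the test (standard error 0.22, edgeR adjusted p = 0.171). It passed with scaling to the total count alone, and with mouse 301 of the Con group or mouse 308 of the Ade group left out (0.48 in both, edgeR adjusted p = 0.098 and 0.0587), and the other single mice left out gave 0.24 to 0.43, the lowest without mouse 403 (edgeR adjusted p = 0.367). The Ade + IMC mice were close to each other at 91.9 to 112 (median 106), all above the Con range. The exons of Cldn19 share 90 bases with the antisense gene Gm12927, and reads there cannot be assigned.

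The thick ascending limb markers, Umod and Slc12a1 among them, went the other way, with 7 of 8 lower in the Ade group, 0 higher and a median log2 change of -0.69. Relative to the mean of these markers, Cldn16 was -5.29 to -4.26 in the Con mice and -3.90 to -3.04 in the Ade mice on the log2 scale. Cldn19 was -2.75 to -1.96 and -1.94 to -0.38. Both were thus higher relative to their segment in every Ade mouse than in any Con mouse, by a mean of 1.35 and 1.25. Within the pair, the ratio of Cldn16 to Cldn19 per base of exon had Con, Ade and Ade + IMC medians of 0.639, 0.697 and 0.544, with overlapping ranges.

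Cldn1 marks the parietal cells of Bowman's capsule, and in other epithelia it is a general sealing claudin (ENSMUSG00000022512, chromosome 16, 26356642 to 26371841, minus strand). It had a CPM of 39.3, 43.8, 36.7, 40.3 and 41.1 in the Con mice, of 60.8 to 103 in the Ade mice (median 68.7) and of 40.2 to 64.5 in the Ade + IMC mice (median 56.1). The Ade mice did not overlap the Con mice, and mouse 207 stood highest. Its log2 fold change in the Ade group was 0.88 (standard error 0.13, edgeR adjusted p = 5.29e-05). Of 6 podocyte markers, used as the glomerular reference, 1 was higher and 0 lower, and Cldn1 relative to their mean was -1.36 to -0.99 in the Con mice and -0.78 to 2.03 in the Ade mice on the log2 scale. Cldn1 and Cldn16 are neighbours on chromosome 16, 91293 bases apart with 0 protein-coding genes between them.

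Cldn5 is the main claudin of endothelial cells (ENSMUSG00000041378, chromosome 16, 18776847 to 18778262, plus strand). It had a CPM of 10.7, 12.5, 13, 11.1 and 15.5 in the Con mice, of 20.7 to 40 in the Ade mice (median 22.1) and of 17.6 to 35.4 in the Ade + IMC mice (median 26.2). All adenine-fed mice were above all Con mice. Its log2 fold change in the Ade group was 1.04 (standard error 0.18, edgeR adjusted p = 0.000264). Other endothelial markers did not rise with it: of 10, 6 were lower and 0 higher, with a median log2 change of -0.46. Cldn5 relative to their mean was -3.20 to -2.33 in the Con mice and -2.05 to -0.80 in the Ade mice.

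The order of the claudins within a kidney changed as well. Per kilobase of exon, Cldn2 led in the Con group with a median of 212 CPM per kb, followed by Cldn10 (89.8) and Cldn8 (56.9), and each of these ranges was clear of the next. Cldn19, Cldn4 and Cldn7 came next at 18.1, 16.7 and 16.1, with overlapping ranges, then Cldn16 (11.6), Cldn3 (11.4), Cldn5 (8.86) and Cldn1 (8.32). In the Ade group Cldn2 still led at 85.2, but Cldn4 was next at 50.7, ahead of Cldn10 (41.2), Cldn7 (32.4), Cldn8 (28.5) and Cldn3 (26.1), and every range overlapped that of its neighbour in the order. Cldn19 (20.2), Cldn16 (15.7), Cldn5 (15.6) and Cldn1 (14.2) closed it. In the Ade + IMC group the first places went to Cldn2 (82.7), Cldn10 (55.4) and Cldn4 (41.3), again with overlapping ranges.

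As a share of the summed level of all 21 claudins per kilobase, Cldn2 made up 37.1% to 50.7% in the Con mice (median 44.1%), 19.6% to 31.1% in the Ade mice (median 22%) and 19.5% to 31.9% in the Ade + IMC mice (median 22.8%). Cldn4 had a share of 2.69% to 4.31% in the Con mice (median 3.49%), 8.34% to 20.2% in the Ade mice (median 15.4%) and 9.18% to 15.7% in the Ade + IMC mice (median 10.9%). The summed level itself was 458 to 500 CPM per kb for Con, 298 to 447 for Ade and 277 to 412 for Ade + IMC kidneys. The separation in this sum depended on the scaling, since with total counts alone (chosen after seeing the data) it was 412 to 434 for Con, 322 to 488 for Ade and 293 to 431 for Ade + IMC kidneys, which overlap. The shares do not depend on it.

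**Figure D3:**
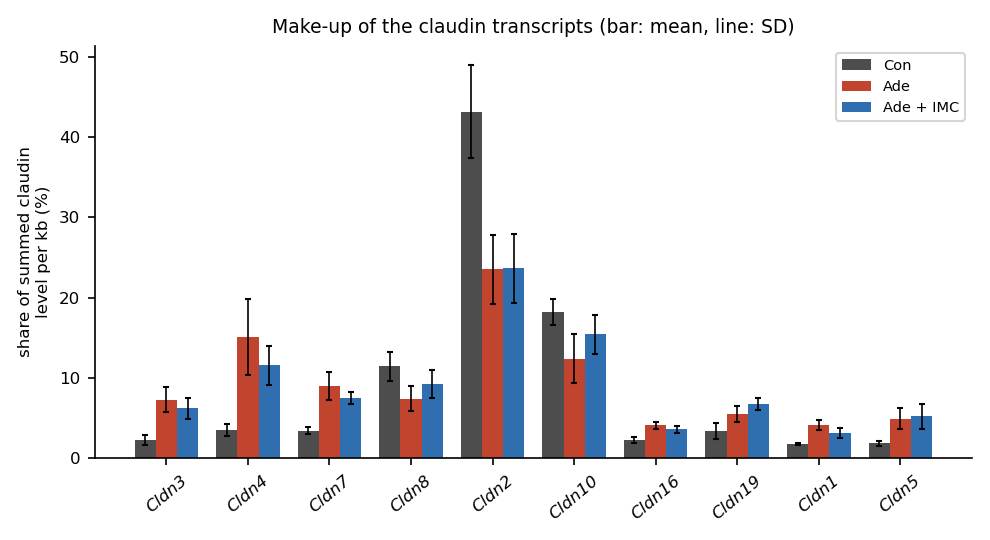
Share of each claudin in the summed CPM per kilobase of 21 claudins (vertical axis, percent), as the mean (bar) and SD (line) of 5 Con, 6 Ade and 6 Ade + IMC mice. The Cldn2 bar is 43.1% in the Con group and 23.5% in the Ade group, and the Cldn4 bar 3.54% and 15.1%.

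Some mice were the highest or lowest of their group in several claudins, whereas mouse 212 was so in none. In the Ade group, mouse 207 had the highest level of Cldn1, Cldn3, Cldn4, Cldn7 and Cldn19. Mouse 407 had the highest level of the 3 claudins that fell, Cldn2, Cldn8 and Cldn10, and the lowest of Cldn1, Cldn4, Cldn7 and Cldn5. In the Ade + IMC group, mouse 311 had the lowest level of 7 claudins, and mouse 211 the highest of Cldn3, Cldn4, Cldn7 and Cldn19. The first digit of the mouse number is 2, 3 or 4, and its meaning is not stated. Within each digit, the difference between the Ade and Con means kept the direction of the fit for all 9 called claudins, for example 2.29, 1.72 and 1.21 for Cldn4 and -1.16, -1.75 and -1.22 for Cldn2 on the log2 scale. For Cldn19 it was 0.46, -0.38 and 0.95. Digit 3 held 1 Ade mouse and digit 4 held 1 Con mouse.

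The question of the study was put by setting Ade + IMC kidneys against Ade kidneys, and 0 of the 10 claudins passed the test of that difference. By limma on log2(normalized count + 1), over 14696 genes, 0.0% of all genes were called, which is 0 genes, with 988 at an unadjusted p-value below 0.05. edgeR also called 0 genes (985 unadjusted), and DESeq2 called 37 (1212 unadjusted). The paper, with DESeq2 and the same threshold, reported many more genes in both directions for these groups. The reason for that difference was not tested. When the first digit entered limma as a block, 0.905% of all genes were called and again 0 claudins. In CPM, 0 claudins were without overlap between the groups, against 0.218% of all genes.

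The Ade mice of this comparison are those set against the Con mice above, and the intervals show what sizes remain possible. Cldn1 had the largest difference, -0.42 on the log2 scale (95% interval -0.72 to -0.13 before adjustment over genes, limma adjusted p = 0.711, and -0.46 with adjusted p = 0.137 with the block). For the collecting duct claudins, the difference was -0.26 for Cldn3 (-0.70 to 0.17), -0.36 for Cldn4 (-0.90 to 0.17), -0.26 for Cldn7 (-0.63 to 0.11) and 0.30 for Cldn8 (-0.14 to 0.74), with limma adjusted p-values of 0.785 to 0.816. Without mouse 207 of the Ade group those of Cldn3, Cldn4 and Cldn7 were -0.15, -0.21 and -0.17, and that of Cldn8 was 0.17 without mouse 308 of the Ade group and 0.20 without mouse 410 of the Ade + IMC group. Cldn10 had 0.32 (-0.04 to 0.67, limma adjusted p = 0.749, and 0.41 with adjusted p = 0.138 with the block). Cldn2 and Cldn5 were nearest to 0, with -0.02 (-0.39 to 0.36) and 0.04 (-0.40 to 0.48). For Cldn2 the interval leaves out a return to the Con level, which lies 1.25 above the Ade level on the log2 scale in the edgeR fit. The same holds for the other claudins called in the Ade group except Cldn16. The error of the change between the Ade and Con groups is not counted in this reading. Cldn16 had -0.21 (-0.49 to 0.08) and Cldn19 0.29 (-0.07 to 0.65), the latter 0.15 without mouse 308.

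Within the first digits 2, 3 and 4, the difference of Cldn1 was -0.69, -0.07 and -0.50, that of Cldn10 0.36, 0.62 and 0.33 and that of Cldn8 0.07, 0.69 and 0.54. Cldn3 had -0.50, -0.13 and -0.22, and Cldn16 had -0.18, -0.13 and -0.18. The other 5 did not keep a direction. Cldn4 had -0.70, -0.70 and 0.06, Cldn7 -0.55, -0.36 and 0.03, and Cldn19 -0.03, 0.86 and 0.37. Cldn2 had -0.22, 0.52 and -0.06, and Cldn5 had 0.14, -0.12 and 0.10. Relative to the markers of their segments, all 10 claudins overlapped between the Ade and Ade + IMC mice. The segment markers themselves had 0 calls between these groups, with a median log2 difference of 0.42 for the proximal tubule, 0.46 for the thick ascending limb and 0.28 for the principal cell markers.

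Compared directly with the Con group, which also served the comparison above, the Ade + IMC mice had 6 claudins higher and 3 lower over a fit of 14578 genes, where 30.9% of all genes were called higher and 32.3% lower. The groups were without overlap for 5 claudins higher and 2 lower, against 20.7% and 16.2% of all genes. The log2 fold change was 1.29 for Cldn4 (standard error 0.19, edgeR adjusted p = 7.51e-05), beside 1.75 in the Ade group. That of Cldn3 was 1.03 (0.19, edgeR adjusted p = 0.000591), beside 1.36, and that of Cldn7 0.71 (0.12, edgeR adjusted p = 0.000278), beside 1.04. These collecting duct claudins thus passed the test in each comparison with the Con group.

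Cldn2 was at -1.29 against the Con group (standard error 0.18, edgeR adjusted p = 4.9e-05), beside -1.25 in the Ade group. Cldn10 had -0.67 (0.12, edgeR adjusted p = 0.00035), beside -0.93. Cldn8 had -0.72 (0.18, edgeR adjusted p = 0.00447), beside -0.99, but within digit 4, with 1 Con mouse, its difference was 0.10. Cldn5 had 1.04 in both comparisons (edgeR adjusted p = 0.00041 here), and Cldn1 had 0.41 (0.11, edgeR adjusted p = 0.0063), beside 0.88. Cldn19, at 0.56 (0.16, edgeR adjusted p = 0.00937), passed the test here, and Cldn16, at 0.23 (0.14, edgeR adjusted p = 0.192), did not. Since neither passed the test between the Ade + IMC and Ade groups, these calls do not show that the adenine diets had different effects. With scaling to the total count alone the median of all genes was 0.27 in place of -0.02 and the higher share of calls 77.0% in place of 48.9%, the 9 calls stood, and Cldn16 was also called (0.52, edgeR adjusted p = 0.0085). The sizes moved with that scaling, Cldn8 to -0.43 (edgeR adjusted p = 0.0582), Cldn10 to -0.39, Cldn1 to 0.70 and Cldn19 to 0.84.

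**Figure D4:**
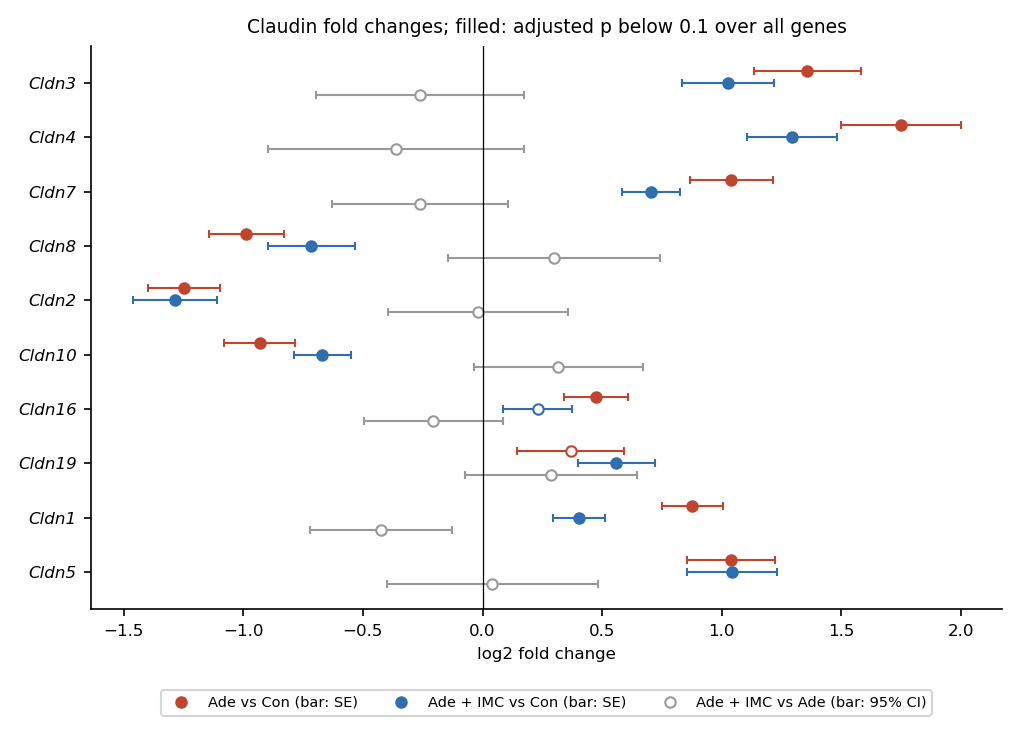
Log2 fold changes of the 10 claudins (horizontal axis) for Ade against Con and Ade + IMC against Con, with standard errors from edgeR, and for Ade + IMC against Ade, with 95% intervals from limma. Filled points passed an adjusted p-value of 0.1. Cldn4 lies farthest above 0 and Cldn2 farthest below it in each comparison with the Con mice, which both comparisons share, and the open grey points of the direct comparison lie between -0.42 and 0.32.

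Of the 11 other claudins named in the tables, 3 were abundant enough to be tested between the Ade and Con groups. Cldn12, a widely expressed claudin known from calcium handling, had a mean CPM of 128 ± 9.39 (SD, n = 5) in the Con mice and 53.2 ± 10.8 (SD, n = 6) in the Ade mice, a log2 fold change of -1.25 (standard error 0.12, edgeR adjusted p = 2.23e-06). Cldn6, a claudin of embryonic epithelia, rose from 1.13 ± 0.298 to 3.12 ± 0.767 CPM, a log2 fold change of 1.46 (standard error 0.24, edgeR adjusted p = 0.000169). Cldn15 had a log2 fold change of -0.02 (edgeR adjusted p = 0.931). In the Ade + IMC group against the Con group, Cldn12 had -1.22 and Cldn6 0.92 (edgeR adjusted p = 4.73e-06 and 0.00602). Cldn15 was called higher there, at 0.43. Between the Ade + IMC and Ade groups, 0 of the 4 other claudins tested were called by limma.

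The lists of other junction genes are read beside the 35.1% of all genes called higher and the 32.2% called lower between the Ade and Con groups, and beside a median log2 change of 0.02 over all genes. Between the Ade + IMC and Con groups these shares were 30.9% and 32.3%. Of 12 other membrane proteins of the tight junction, 2 were higher, 6 lower and 4 did not pass the test in the Ade group, with a median log2 change of -0.13. Jam2, a junctional adhesion molecule that endothelial cells also carry, rose by 0.88 (standard error 0.17, edgeR adjusted p = 0.000519), and Lsr, the angulin that marks corners where cells meet, by 0.51 (0.13, edgeR adjusted p = 0.00295). The largest falls were those of Ildr2, another angulin, at -0.997 (0.23, edgeR adjusted p = 0.00187) and Marveld3, a relative of occludin, at -0.71 (0.11, edgeR adjusted p = 9.87e-05). Against the Con group, the Ade + IMC mice had 2 higher and 5 lower.

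The scaffold and polarity proteins hold the claudins to the cytoskeleton and place the junction at the apical side. Of 20 genes, 4 were higher, 11 lower and 5 did not pass in the Ade group, with a median log2 change of -0.33, and 3 were higher and 10 lower in the Ade + IMC mice against the Con mice. Ybx3, a junction-bound regulator of transcription, had 0.76 and Amotl1 had 0.50. Prkcz, the atypical kinase of the polarity complex, had -1.12 and Cgnl1 (paracingulin) had -0.91. The edgeR adjusted p-values of these 4 were 1.43e-06 to 0.00293.

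Among 16 partners and regulators of claudins, 7 were higher, 6 lower and 3 did not pass in the Ade group, shares near those over all genes. Snai1, a repressor of junction genes that binds E-boxes, rose by 1.41 on the log2 scale (standard error 0.21, edgeR adjusted p = 8.23e-05) from a low level of 2.97 ± 0.839 CPM (SD, n = 5). Klhl3, which directs the breakdown of Wnk kinases and of Cldn8 and is also a marker of the distal convoluted tubule, had -1.45 (0.24, edgeR adjusted p = 0.000169). Prss8, a channel-activating protease, had -1.05 (0.13, edgeR adjusted p = 1.13e-05). In the Ade + IMC group against the Con group, 6 were higher and 6 lower, and against the Ade group 0 of the 16 were called.

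Of 14 genes of the adherens junction, which lies below the tight junction, 4 were higher, 5 lower and 5 did not pass in the Ade group, shares near those over all genes, with a median log2 change of -0.14. Cdh3 (P-cadherin) rose by 2.18 (standard error 0.21, edgeR adjusted p = 1.79e-06) and Nectin4 by 1.04 (0.17, edgeR adjusted p = 0.000176). Nectin3 had -0.87 (0.14, edgeR adjusted p = 0.000147), and Cdh16, the kidney-specific cadherin, had -0.52 (0.11, edgeR adjusted p = 0.000917). In the Ade + IMC mice 3 were higher and 8 lower against the Con mice, beside 30.9% and 32.3% of all genes. None of the 62 genes of these 4 lists was called by limma between the Ade + IMC and Ade groups.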

How the data were processed

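Kidney RNA-seq of 17 of the 21 labelled mice was analysed. Groups were taken from the labels and diets from the paper's methods. For Con and Ade mice the authors deposited raw gene counts. For Ade and Ade + IMC mice they deposited a signal, gene counts scaled by DESeq2 size factors (median of ratios). The submitters' processing notes name Trimmomatic 0.39, FastQC 0.11.8, Bowtie2 2.2.5 and HTSeq 0.9.1, whereas the paper names STAR as the aligner, with mm10. Neither the annotation release nor the strand setting is given in the sources used here. The authors' own comparison holds log2 fold changes and p-values, and none of its values was used.

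Divided by the value of 1 read, 100% of the normalized values were whole (tolerance 1e-06 of a read), and the recovered reads of the 6 Ade mice differed from their raw counts in 0 values. No pair of libraries in a group was a duplicate (the smallest chi-square per degree of freedom was 4.29). Nothing in the labels links mice to cages or litters, so p-values measure the spread between these mice. The number of counts limits precision, and 3 counts in the smallest Con, Ade and Ade + IMC library equal 0.389, 0.551 and 0.524 CPM, which covers counting error only.

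The Ade and Con groups, and the Ade + IMC and Con groups, were compared by edgeR 4.0.16 (quasi-likelihood test, TMM, its own filter on low counts) in R 4.3.3, each in a fit of the compared groups alone. Ade + IMC was set against Ade by limma 3.58.1 (trend option) on log2(normalized count + 1) for genes with a mean of at least 10, a scale that understates the change of low genes. Calls used p-values adjusted over all genes (Benjamini-Hochberg) and a threshold of 0.1, as in the paper's methods. All tests were two-sided. Alternatives changed the scaling, tool (DESeq2 1.42.0 included), filter, pseudocount, threshold, samples in the fit, block and mice included. CPM values of single mice used TMM factors over the 17 mice, and levels relative to markers were log2 CPM (prior count 2) minus the mean of the markers. Exonic lengths and coordinates are from GENCODE M21 on GRCm38.

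The claudins and all gene lists were chosen with earlier results of these data known. The text gives all 10 claudins and, in each junction list, up to 2 genes called higher and 2 called lower with the largest fold between the Ade and Con groups. The result of 1 gene that this rule picks is not reported here. Cldn15 was named as the remaining tested claudin after its value was seen. Each test was first run on simulated counts with known changes.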

Additional observations from a re-analysis of the deposited data

How the results depend on the processing

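The 9 claudins called between the Ade and Con groups, and the 9 called between the Ade + IMC and Con groups, kept their direction and their call under every scaling, tool, filter, block, pooled fit and left-out mouse that was run. Without single mice there were 6 to 7 claudins higher and 3 lower in both comparisons, with 9145 to 9848 and 8486 to 9185 genes called in all. Cldn19 in the Ade group became called with total counts only (0.66, edgeR adjusted p = 0.0237), and Cldn16 in the Ade + IMC group with upper-quartile scaling (0.31, 0.0926) and without mouse 311 or 412 (0.29 and 0.32, 0.0942 and 0.0912). Between the Ade + IMC and Ade groups 37 genes were called by DESeq2 and 133 with the first digit as a block, and 0 with any mouse left out. In this comparison the sign of Cldn2 was not settled (0.0015 by DESeq2, 0.0185 with the block, -0.145 to 0.0715 without single mice), nor was that of Cldn5 (-0.0494 to 0.178 without single mice). With the median of the markers in place of their mean, the difference of Cldn10 relative to proximal tubule markers was -0.29 in place of 0.05, and relative to thick ascending limb markers 0.0427 in place of -0.19. With total counts only, chosen after seeing the data, the mean summed claudin level differed from Con by -19.0 CPM per kb in the Ade and -38.0 in the Ade + IMC group, in place of -108 and -113. The cause of these shifts was not tested. Over the alternatives 560 values of single claudins kept direction and call, 7 became called and 13 changed sign. The labels give no replicate numbers, so the first digit of the mouse number was the only block run. With 6 mice a group, the intervals of the direct comparison leave log2 differences of up to 0.90 in size possible for Cldn4.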

Other observations

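Of the 11 other claudins, 8 were too low to be tested between the Ade and Con groups. Cldn23 had a mean of 0.615 CPM in the Con mice and 1.61 CPM in the Ade mice, and Cldn11 had 1.95 and 0.350 CPM, with up to 5.62 CPM in a single Con mouse. The means of Cldn9, Cldn14, Cldn18, Cldn20, Cldn22 and Cldn34c1 were below 1 CPM in each group. Of 30 groups of claudin values, 0 held a mouse far from the others by Dixon's criterion, where chance gives about 1 in 20.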
